A study of Mus musculus with 118 samples.

Results

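Polycomb binding was examined at 8 genes that encode regulators of blood cell formation: Runx1, Runx2, Runx3, Tal1, Lyl1, Lmo2, Spi1 and Hhex. The genes were chosen by name. Each was looked up by position among 26180 mouse genes that have a curated RefSeq transcript on a placed chromosome of mm10. Genes with noncoding transcripts only are among these, and count in every share of all genes given below. A promoter was the stretch of 2500 bp on either side of a transcription start site (TSS), and start sites of one gene that lay more than 1000 bp apart were kept as separate promoters. The 8 genes had 14 such promoters. The measurements were 3 deposited lists of calibrated ChIP-seq peaks, which are regions where sequenced chromatin fragments pulled down by an antibody were enriched over Input. RING1B is a subunit of the catalytic core of Polycomb repressive complex 1 (PRC1), which pairs RING1A or RING1B with a PCGF protein. SUZ12 is a core subunit of Polycomb repressive complex 2 (PRC2), and PCGF2 is a subunit of the canonical form of PRC1.

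The cells were mouse embryonic stem cells (ESCs), grown on gelatin with serum and leukemia inhibitory factor. The PRC1CPM line was made from E14 ESCs by way of targeted clones. In it Ring1a carries point mutations that disable catalysis at all times, both Ring1b alleles carry a normal exon followed by an inverted mutant copy, and CreERT2 is expressed from Rosa26. Without tamoxifen the PRC1CPM cells make catalytically active RING1B, and that is the state in which all 3 lists were called. The PRC1CKO line, with Ring1a deleted, Ring1b flanked by loxP sites and CreERT2 at Rosa26, contributed to the RING1B and SUZ12 lists in its untreated state. Human HEK293T cells were mixed in before immunoprecipitation as an internal standard. The series holds 118 samples in 42 groups. Untreated PRC1CPM cells gave 3 samples each for RING1B, SUZ12 and PCGF2, and untreated PRC1CKO cells gave 3 for SUZ12. Transcripts were not measured in these files, so the cell type could not be checked against marker levels. Signal after tamoxifen was not analysed here, so the values below describe where the complexes were found and not what their loss does. The lists hold 18643 RING1B, 7438 SUZ12 and 3680 PCGF2 peaks, each given as a start and an end with no height and no replicate. No test between groups was therefore possible, and the absence of a peak means that none was listed.

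PRC2 places methyl groups on histone H3 (H3K27me3), and PRC1 places ubiquitin on histone H2A (H2AK119ub1). In ESCs both complexes gather at CpG islands, the CpG-rich stretches that surround many promoters, above all at genes for developmental transcription factors that the stem cell keeps silent. The RUNX proteins are the DNA-binding alpha subunits of core-binding factor. RUNX1 is required for the emergence of blood stem cells, RUNX2 for bone formation, and RUNX3 acts in T cells and sensory neurons. Each mouse Runx gene has a distal promoter, far upstream, and a proximal promoter inside the gene, and the transcripts from the pair differ at their first exons. TAL1 and LYL1 are related basic helix-loop-helix proteins, LMO2 is a LIM-domain adaptor that joins TAL1 or LYL1 to GATA factors and LDB1, SPI1 (PU.1) is the ETS-family regulator of myeloid and B cell fate, and HHEX is a homeobox protein of endoderm, endothelium and early blood.

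The sequences just before the start sites held fewer CpGs at the distal than at the proximal promoters of Runx1 and Runx3. The 250 bases before each of the following start sites are shown for that contrast, with Hhex added as a CpG-rich occupied promoter. Lyl1 and the upstream promoter of Tal1 are added as occupied promoters with fewer CpGs than Hhex in these 250 bases. They were taken from the RefSeq promoters of GRCm38.p6 (the assembly behind mm10), read 5′ to 3′ on the gene's own strand, with every CpG dinucleotide in capitals. The table held 9 of the 14 promoters, from 6 of the 8 genes, and the Runx2 proximal promoter was not among them. The Runx2 distal promoter has start sites at 44814797 and 44814627, and the sequence is the one before the latter.
Runx1 distal, minus strand, chr16:92826075-92826324: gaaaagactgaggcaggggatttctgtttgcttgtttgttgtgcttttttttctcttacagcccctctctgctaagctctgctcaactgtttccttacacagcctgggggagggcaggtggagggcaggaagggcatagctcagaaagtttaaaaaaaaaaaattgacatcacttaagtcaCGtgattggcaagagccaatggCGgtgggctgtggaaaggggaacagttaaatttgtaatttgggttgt
Runx1 proximal, minus strand, chr16:92697330-92697579: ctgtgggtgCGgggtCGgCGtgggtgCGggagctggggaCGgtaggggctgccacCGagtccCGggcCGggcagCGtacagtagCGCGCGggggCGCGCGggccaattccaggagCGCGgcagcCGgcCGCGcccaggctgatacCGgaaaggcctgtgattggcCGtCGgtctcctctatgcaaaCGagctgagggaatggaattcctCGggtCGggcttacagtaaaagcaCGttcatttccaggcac
Runx2 distal, minus strand, chr17:44814628-44814877: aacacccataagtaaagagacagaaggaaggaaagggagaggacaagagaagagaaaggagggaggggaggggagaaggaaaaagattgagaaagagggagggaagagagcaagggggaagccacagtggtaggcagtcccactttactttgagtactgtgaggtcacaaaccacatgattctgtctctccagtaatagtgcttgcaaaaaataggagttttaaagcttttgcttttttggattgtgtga
Runx3 distal, plus strand, chr4:135120395-135120644: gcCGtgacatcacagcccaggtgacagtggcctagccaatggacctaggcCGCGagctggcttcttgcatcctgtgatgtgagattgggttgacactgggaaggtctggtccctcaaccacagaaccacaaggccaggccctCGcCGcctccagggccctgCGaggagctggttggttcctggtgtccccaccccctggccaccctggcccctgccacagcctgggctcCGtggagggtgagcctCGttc
Runx3 proximal, plus strand, chr4:135152295-135152544: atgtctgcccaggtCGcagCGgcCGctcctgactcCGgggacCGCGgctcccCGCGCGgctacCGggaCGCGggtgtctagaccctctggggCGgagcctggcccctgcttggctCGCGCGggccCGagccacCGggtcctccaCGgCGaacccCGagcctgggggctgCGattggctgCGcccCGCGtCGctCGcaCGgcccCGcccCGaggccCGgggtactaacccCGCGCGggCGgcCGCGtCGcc
Tal1 upstream, plus strand, chr4:115056176-115056425: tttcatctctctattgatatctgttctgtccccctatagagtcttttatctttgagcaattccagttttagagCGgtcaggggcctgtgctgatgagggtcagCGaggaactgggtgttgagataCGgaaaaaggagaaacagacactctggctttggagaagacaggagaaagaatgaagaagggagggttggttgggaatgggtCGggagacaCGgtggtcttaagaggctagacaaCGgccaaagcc
Lyl1, plus strand, chr8:84701207-84701456: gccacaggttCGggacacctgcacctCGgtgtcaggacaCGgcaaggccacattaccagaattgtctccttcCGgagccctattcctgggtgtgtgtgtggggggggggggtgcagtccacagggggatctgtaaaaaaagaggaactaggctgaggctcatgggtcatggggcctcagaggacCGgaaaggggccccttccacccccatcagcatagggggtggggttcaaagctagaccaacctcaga
Hhex, plus strand, chr19:37434591-37434840: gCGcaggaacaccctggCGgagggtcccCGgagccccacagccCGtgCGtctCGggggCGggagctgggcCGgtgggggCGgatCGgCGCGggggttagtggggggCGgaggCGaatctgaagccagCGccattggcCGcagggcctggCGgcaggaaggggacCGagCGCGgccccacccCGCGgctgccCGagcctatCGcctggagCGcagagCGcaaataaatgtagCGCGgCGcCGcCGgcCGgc

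The Runx1 distal sequence held 2 CpGs and the proximal sequence 27, the Runx3 distal sequence 8 and the proximal sequence 38, and the Runx2 distal sequence 0. Hhex had 32, Lyl1 had 5, and Tal1 had 6 at its upstream and 16 at its downstream start site. Over 32851 promoter entries the median was 6 CpGs in 250 bases, 1.88% had at least as many as Runx3 proximal, 8.56% at least as many as Runx1 proximal, and 7.87% had 0 like Runx2 distal. The hexamer TGTGGT, the core of the RUNX binding motif, was searched on both strands in the same 250 bases. It occurred 2 times before the Runx3 distal start site, where it reads accaca on the printed strand, and 1 time before the Runx2 distal start site at 44814627, and it was in neither Runx1 sequence, nor in Runx3 proximal, Tal1, Lyl1 or Hhex. The hexamer was present in 14.0% of all promoter entries, so its presence at these places is a description and not a binding site.

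RING1B was listed at a promoter in 7 of the 8 genes, against 53.2% of all genes. The same 7 had a SUZ12 peak (24.8% of all genes) and a PCGF2 peak (13.5% of all genes), and in each of the 7 all 3 lists met at the same promoter, which held for 13.4% of all genes. Spi1 was the gene without a promoter peak of any list. Counted by separate promoters, 8 of the 14 had peaks of all 3 lists, against 13% of 28844 promoters genome-wide (51.3% had RING1B, 24.1% SUZ12 and 13.1% PCGF2). The other 6 had no peak of any list. No promoter of these genes had 1 or 2 of the factors without the rest. The map of peaks around the start sites shows this split.

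**Figure D1:**
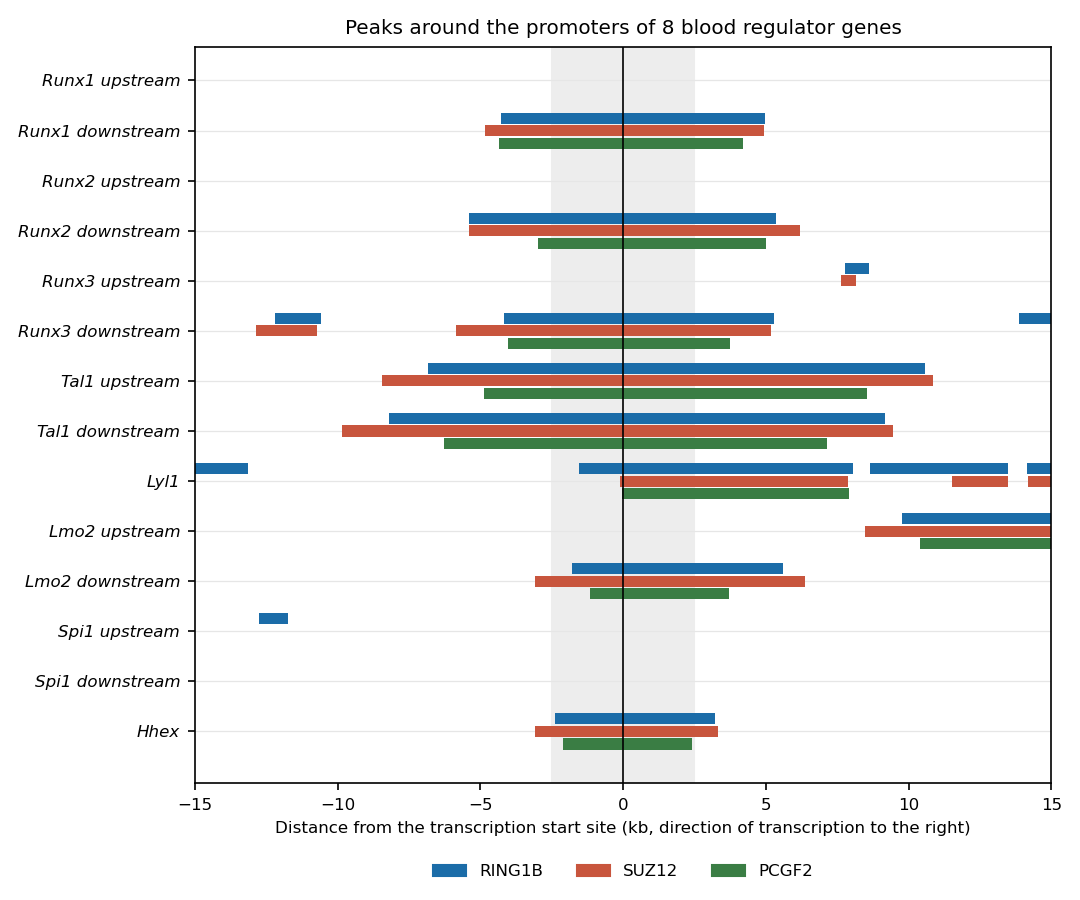
Peaks of the 3 lists within 15 kb of each of the 14 start sites of the 8 genes, drawn to scale in kb with transcription to the right (for promoters with several start sites, from the first). The shaded band is the promoter window of 2500 bp on either side, in which 8 promoters have peaks of all 3 lists and 6 have none.

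All 3 Runx genes had the same arrangement: RING1B, SUZ12 and PCGF2 covered the whole window of the proximal promoter, and no peak of any list touched the distal promoter. For Runx1, on chromosome 16, the start sites at base 92826074 (distal) and base 92697329 (proximal) lay 128.7 kb apart. For Runx2, on chromosome 17, the distance from base 44814797 to base 44736648 was 78.1 kb, and for Runx3, on chromosome 4, from base 135120645 to base 135152545 it was 31.9 kb. Each of the 3 proximal windows was covered to 100% by each list.

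The nearest peaks lay well outside the distal windows. At the Runx1 distal start site the nearest listed peak of any factor lay over 100 kb away, at 124.5 kb for RING1B, 123.9 kb for SUZ12 and 124.4 kb for PCGF2, and in each case this was the domain at the proximal promoter. At the Runx2 distal promoter the gaps were 36.8 kb for RING1B, 72.6 kb for SUZ12 and 75 kb for PCGF2. Runx3 was the most compact gene, with RING1B at 7.78 kb, SUZ12 at 7.62 kb and PCGF2 at 27.9 kb from its distal start site.

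Such an arrangement was uncommon. Among 799 genes with exactly 2 promoters at least 10 kb apart, 4.26% (34 genes) had no peak at the upstream promoter and peaks of all 3 lists at the downstream one. Runx1, Runx2, Runx3 and Lmo2 were 4 of those 34, and Spi1, the remaining member with such a pair, had no peak at either promoter. Peaks of all 3 lists at the upstream promoter but not the downstream one were found in 18.1% of the 799, at the downstream but not the upstream one in 6.63%, and at both in 4.76%. For RING1B taken alone the shares were 45.9% upstream, 11% downstream and 20% both. The other genes of the 34 included Cbfa2t3, Ets1 and Lmo3, which belong to the lists of related genes given further on. They also included Esrrb, one of the genes of the stem cell state. All of these were picked out after their values were seen.

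**Figure D2:**
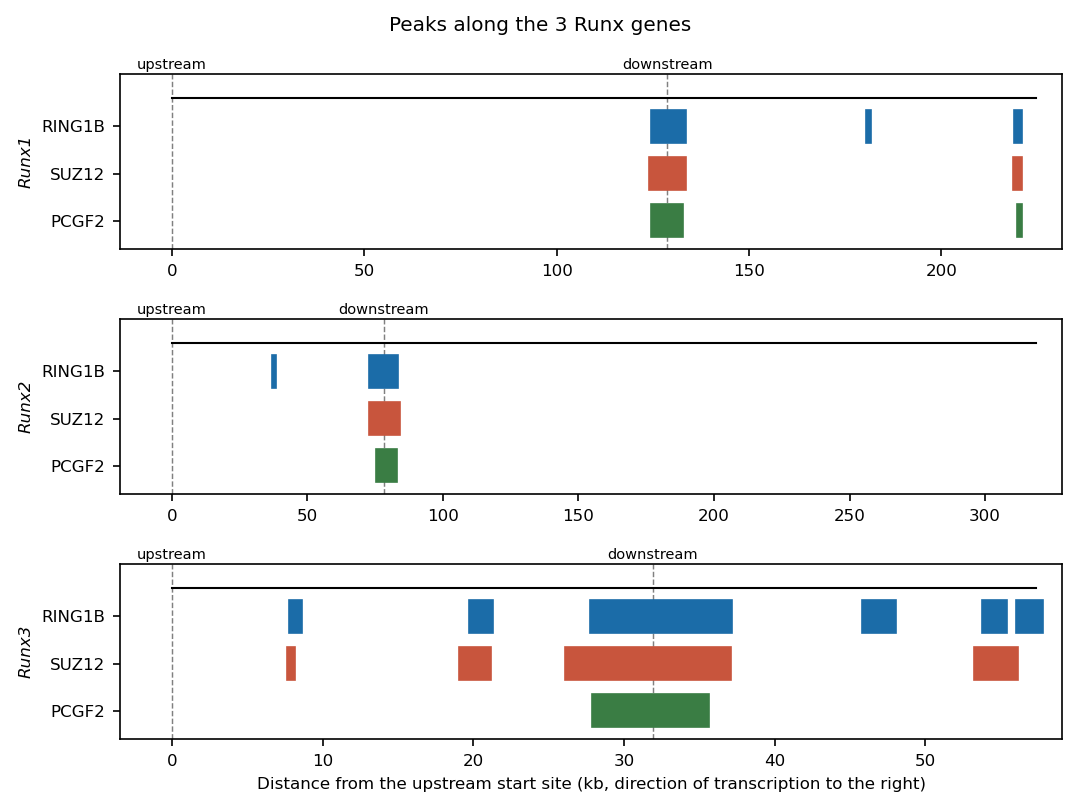
Peaks along the whole of Runx1, Runx2 and Runx3, in kb from the distal (upstream) start site with transcription to the right; each panel has its own scale, the black line is the gene and the dashed lines are the start sites. In each gene the block shared by all 3 lists sits on the proximal (downstream) start site, 128.7, 78.1 and 31.9 kb from the distal one.

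The domains at the 3 Runx proximal promoters were alike in size as well as in place. At Runx1 the RING1B peak ran from 92692368 to 92701599 (9232 bp), the SUZ12 peak measured 9746 bp and the PCGF2 peak 8533 bp. At Runx2 the RING1B peak ran from 44731276 to 44742030 (10755 bp), with 11573 bp for SUZ12 and 7982 bp for PCGF2. At Runx3 the RING1B peak ran from 135148382 to 135157835 (9454 bp), with 11041 bp for SUZ12 and 7774 bp for PCGF2. The RING1B widths of the 3 genes thus spanned 9232 to 10755 bp where the list's median was 1495 bp. They reached to either side of the start site: at Runx1 RING1B extended 4270 bp upstream and 4961 bp downstream. The Runx2 domain covered 402 bp of coding exon and 1014 bp of noncoding exon, and the rest of it was intron.

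Likeness between domains was measured as the Jaccard index, the bins covered in both divided by the bins covered in either, over 600 bins of 100 bp (10 kb on each side of the start site in the 3 lists). For Runx3 proximal the closest genes of 26179 others were Grid1, which encodes a glutamate receptor subunit, with 0.923, and Runx1 with 0.918. From the side of Runx1, Runx3 ranked 3rd, after Helt (0.935) and Nkx2-4 (0.925), both genes for developmental transcription factors. Runx2 was closest to Sp5 (0.918) and Dio3 (0.915), and its index was 0.846 with Runx3 and 0.826 with Runx1, at ranks 25 and 40. The index compares only position and extent.

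Outside the proximal promoters the 3 genes differed. Runx1 had a second site with all 3 lists near its 3′ end, with RING1B from 92605023 to 92607100 (2078 bp), SUZ12 of 2355 bp and PCGF2 of 1488 bp, over the last coding exon (470 bp of coding sequence in the RING1B peak) and part of the noncoding exon. This was the one peak of PCGF2 among the 8 genes that did not lie at a promoter. Runx1 also had a RING1B peak of 1094 bp in an intron, with neither SUZ12 nor PCGF2. Runx2 had 1 other peak, RING1B alone, of 1315 bp, in an intron 36.8 kb from the distal start site, and this peak covered the start site of Supt3, a gene for a transcription coactivator subunit that is read in the opposite direction from within Runx2.

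Runx3 carried 5 RING1B and 3 SUZ12 peaks outside its promoters, and none of PCGF2. Of the RING1B peaks in introns, the peak of 851 bp and the peak of 1612 bp overlapped SUZ12 peaks of 540 and 2128 bp, and the peak of 2243 bp overlapped none. At the 3′ end RING1B peaks of 1657 and 1760 bp both touched a single SUZ12 peak of 2945 bp. RING1B covered 17122 bp of the Runx3 gene (29.9% of it), 12404 bp of Runx1 (5.52%) and 12070 bp of Runx2 (3.79%), and Runx1 and Runx2 are the longer genes at 224609 and 318811 bp. Over the 8 genes together, 9 RING1B peaks lay outside the promoters of these genes, with a median width of 1612 bp. The peak over the Supt3 start site is among them. Of these, 5 overlapped SUZ12 and 1 overlapped PCGF2.

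Tal1, on chromosome 4, had the widest domain of the 8 genes in each list. Its start sites at 115056426 and 115057811 lay 1385 bp apart and shared one domain. RING1B ran from 115049602 to 115066992 (17391 bp), SUZ12 measured 19300 bp and PCGF2 13423 bp, and each list covered both promoter windows to 100%. The RING1B peak began 6824 bp before the first start site and covered 68.9% of the gene, with 541 bp of coding exon. The genes closest to it in extent were A730035I17Rik, which has no assigned function here (0.988), and Wt1, the kidney and gonad regulator (0.951), from the first start site, and Plekhh3 (0.949) and Foxc1 (0.941) from the second. The nearest gene upstream, Stil, had a RING1B promoter peak with 20.9% of the window covered and neither SUZ12 nor PCGF2, and the nearest downstream, Pdzk1ip1, had no peak.

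Lyl1, on chromosome 8, had a domain placed to one side of its start site at 84701457. RING1B ran from 84699897 to 84709499 (9603 bp), but SUZ12 (8014 bp) began 117 bp before the start site and PCGF2 (7954 bp) began 42 bp before it. All 3 covered the whole gene and ran on beyond its 3′ end, by 4783 bp for RING1B, 4637 bp for SUZ12 and 4652 bp for PCGF2. Further peaks followed downstream, RING1B from 8.64 to 13.5 kb after the start site and SUZ12 from 11.5 to 13.5 kb, so the occupied stretch went on in pieces. The promoter window was therefore covered to 81.2% by RING1B, 52.3% by SUZ12 and 50.8% by PCGF2, in each list the lowest value among the occupied promoters of these genes. Lyl1 was also the one gene of the 7 where SUZ12 was narrower than RING1B and where PCGF2 was not wholly contained in SUZ12. The overhang was small, as SUZ12 covered 7939 of the 7954 bp of the PCGF2 peak. The closest genes by extent were Gm16582 (0.866) and Islr2 (0.864). Its paralogue Tal1 ranked 307th for Lyl1 from the first Tal1 start site, with an index of 0.552.

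Lmo2, on chromosome 2, repeated the Runx arrangement at a smaller scale. The upstream promoter, at 103957995, had no peak, with the nearest RING1B 9.78 kb, SUZ12 8.47 kb and PCGF2 10.4 kb away. The downstream promoter, with start sites at 103969557 and 103970287, had all 3. There RING1B ran from 103967774 to 103975174 (7401 bp, 87.5% of the window), SUZ12 measured 9461 bp (100%) and PCGF2 4865 bp (76.4%). SUZ12 reached 1314 bp further upstream and 746 bp further downstream than RING1B, which made it 128% of the RING1B width, the highest ratio of the 7 genes. Trio (0.892) was closest by extent.

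Hhex, on chromosome 19, has a single promoter at 37434841 and the narrowest domain of the 7. RING1B ran from 37432456 to 37438063 (5608 bp, 97.7% of the window), SUZ12 measured 6410 bp (100%) and PCGF2 4512 bp (90.2%). The RING1B peak covered 54.7% of the gene and 594 bp of coding exon. Kcnmb4os2 (0.933) and Negr1 (0.931) were closest by extent. The neighbours Kif11, with a RING1B peak on 23.0% of its window, and 1700122C19Rik, with no peak, had neither SUZ12 nor PCGF2.

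Spi1, on chromosome 2, stood apart from the other 7. Neither its upstream promoter at 91082405 nor its downstream promoter at 91096678 had a peak of any list. The nearest RING1B peak to the upstream promoter lay 11.7 kb away, at the promoter of the neighbouring Gm39874. From the same promoter of Spi1 the nearest SUZ12 peak lay 99.4 kb and the nearest PCGF2 peak 172.5 kb away. Within the gene there was 1 peak, of RING1B, 257 bp wide at 91115314 to 91115570 in the last exon, with 81 bp of coding sequence and 176 bp of untranslated region. It was among the narrowest of the list, at percentile 0.445 of all RING1B widths, and covered 0.770% of the gene. By gene body, 8 of the 8 genes thus had a RING1B peak (54.3% of all genes did), while 7 had SUZ12 (25.3% of all genes) and 7 PCGF2 (14.2% of all genes).

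The 7 promoter domains were wide for their lists. RING1B widths ran from 5608 bp at Hhex to 17391 bp at Tal1, with a median of 9454 bp, where the median over the 12064 RING1B peaks at promoters was 1729 bp. SUZ12 ran from 6410 to 19300 bp with a median of 9746 bp, against 3001 bp over 5731 peaks at promoters. PCGF2 ran from 4512 to 13423 bp with a median of 7954 bp, against 2752 bp over 3042 peaks at promoters. Hhex was lowest in each list, at percentiles 89.9, 82.3 and 77.4 of the promoter peaks of RING1B, SUZ12 and PCGF2, and Tal1 was highest, at 98.9, 97.9 and 95.2. Runx1, Runx2, Runx3 and Lyl1 lay within 1523 bp of each other in RING1B width. No error can be put on a single width, so the order among these 4 is that of the listed values.

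**Figure D3:**
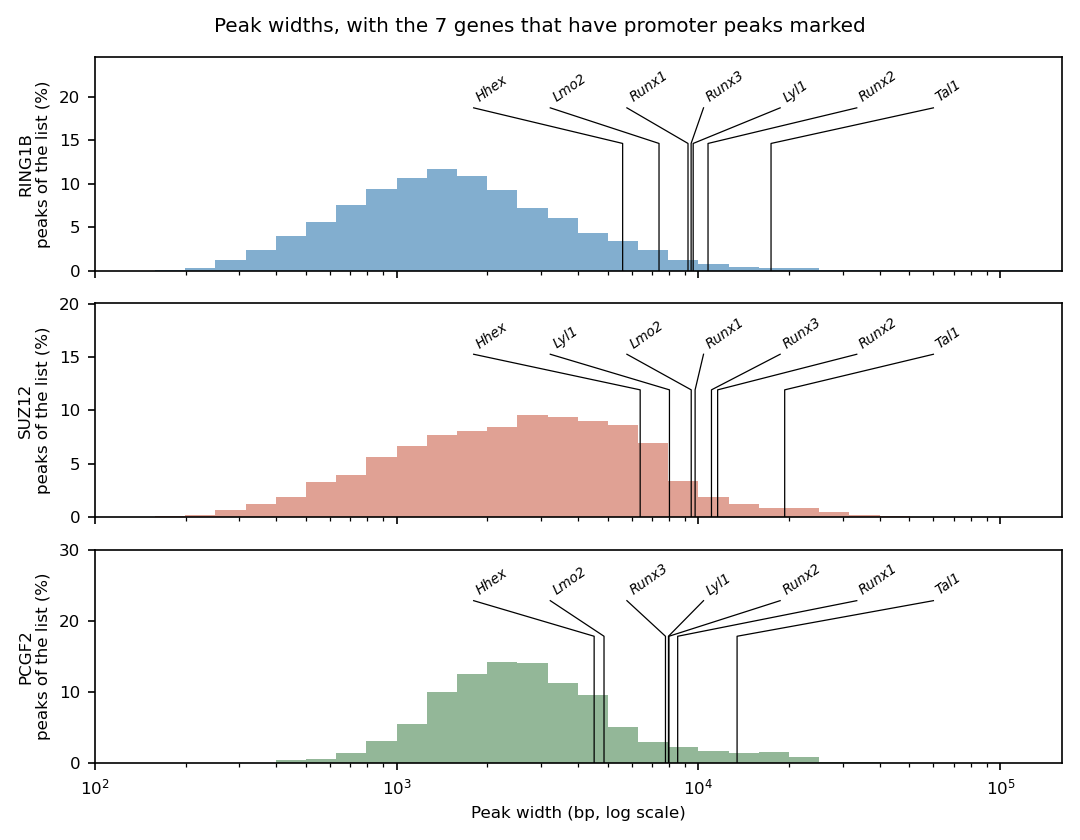
Widths of all peaks of each list, as percent of the list per bin on a logarithmic axis in bp, with the promoter peaks of the 7 genes marked by lines. The marked peaks lie in the right-hand part of each distribution, from 5608 to 17391 bp for RING1B, 6410 to 19300 bp for SUZ12 and 4512 to 13423 bp for PCGF2.

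The 3 factors were nested in much the same way at the 7 genes. PCGF2 lay inside the RING1B peak at 6 of the 7 (Runx1 was the exception, by 62 bp), and 94.1% of the 3368 RING1B peaks that carry 1 SUZ12 and 1 PCGF2 peak had it inside. PCGF2 lay inside SUZ12 at 6 of the 7 (87.1% of the 3368). SUZ12 ran past RING1B at both ends at Runx2 (upstream by only 5 bp), Tal1, Lmo2 and Hhex, 4 of the 7 (43.9% of the 3368). These shares are close to those of the list at large. Since the lists were called by different rules, the width of one factor against another carries that difference too.

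CpG observed/expected was lower at each empty promoter of these genes than at each occupied one, by a narrow margin at Lyl1. It is the number of CpGs relative to that given by the C and G content, here over 500 bp on each side of the start site, and its median over 28830 promoters was 0.479. The 6 promoters without a peak had values of 0.164 (Runx2 distal), 0.165 (Lmo2 upstream), 0.177 (Spi1 upstream), 0.289 (Spi1 downstream), 0.335 (Runx1 distal) and 0.359 (Runx3 distal). The occupied promoters had 0.633 and 0.804 at Tal1, 0.662 at Lmo2, 0.865 at Runx1, 0.909 at Runx2, 0.927 at Hhex and 0.972 at Runx3, and 0.396 at Lyl1. Lyl1 was the occupied promoter nearest to the empty group, 0.037 above Runx3 distal. The CpG counts of the shorter 250-base sequences did not split this way: empty Runx3 distal had 8, more than occupied Tal1 upstream (6) and Lyl1 (5).

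**Figure D4:**
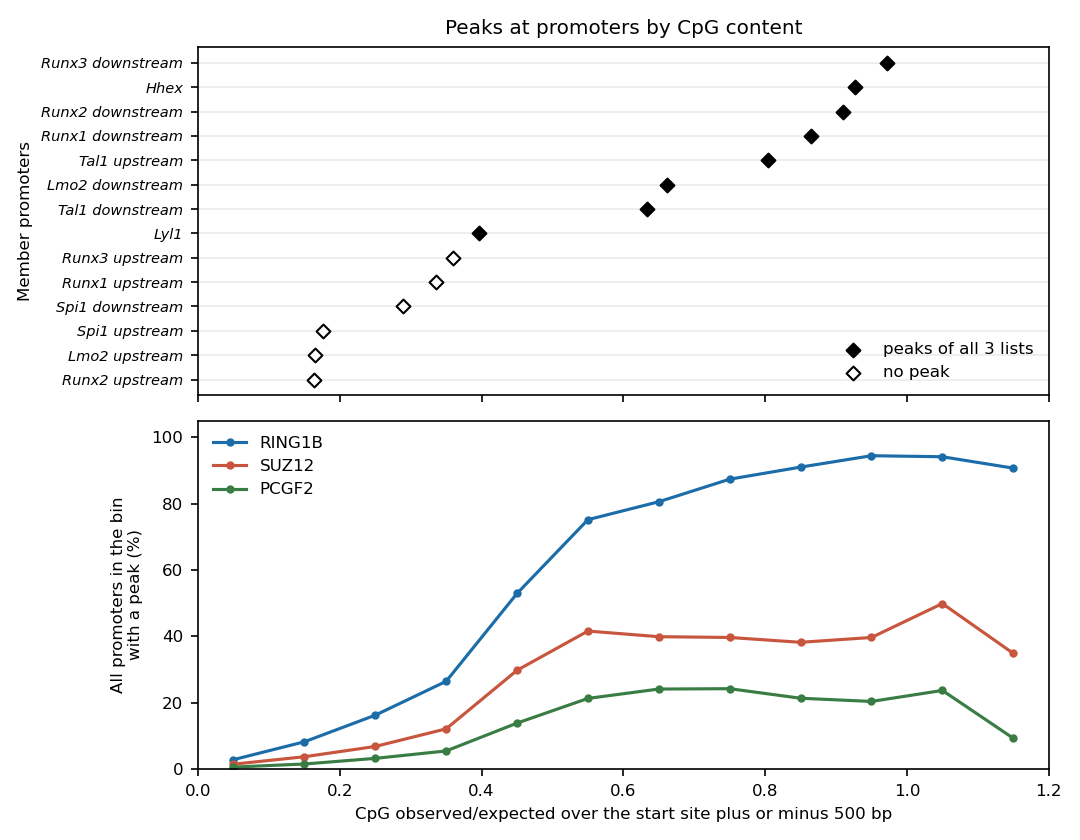
CpG observed/expected of the 14 promoters (upper panel, filled where peaks of all 3 lists were present, open where none was) above the percent of all promoters with a peak in bins of CpG observed/expected of 0.1 (lower panel, the last bin holding all higher values). The open symbols lie from 0.164 to 0.359 and the filled ones from 0.396 to 0.972.

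Genome-wide, promoters below 0.4 had a RING1B peak in 13.4% of cases and all 3 lists in 2.65%, and promoters of at least 0.6 had them in 87.9% and 22.7%. The 7 promoters of these genes that lay above 0.6 had all 3 lists, and of the 7 below 0.4 Lyl1 had all 3 and the other 6 none.

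The promoter peaks of the 7 genes held the start site of 0 other genes. Among the nearest genes on either side, Clic5 (307.4 kb beyond Runx2) was the one with all 3 lists at its promoter. Clic4 next to Runx3 and G430095P16Rik next to Lyl1 had RING1B and SUZ12. Syf2 next to Runx3, Stil next to Tal1, Trmt1 next to Lyl1, Fbxo3 next to Lmo2, Gm39874 next to Spi1 and Kif11 next to Hhex had RING1B alone. Gm30224 and 1810053B23Rik on the sides of Runx1, 4930564C03Rik by Runx2, Lincred1 by Lmo2 and Mybpc3 by Spi1 had no peak.

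The partners and relatives of these regulators were looked up in the same way. The lists were drawn up by role, with earlier results of these data known. Over all genes the shares to read these counts against are 53.2% for RING1B and 13.4% for all 3 lists. Of 6 genes for core-binding factor partners, 6 had RING1B and 5 had all 3 lists at a promoter. Cbfb, the beta subunit that all RUNX proteins share, had all 3 on narrower peaks (RING1B 2511 bp), and the widest RING1B peaks were at Tle3 (6701 bp), Runx1t1 (5776 bp) and Cbfa2t3 (5682 bp), which encode corepressors. Of 12 genes for TAL1 partners and relatives, 11 had RING1B and 6 all 3, widest at Gata2 (18606 bp), Lmo4 (14284 bp) and Lmo1 (10880 bp). Gata1, the erythroid partner, had no RING1B peak.

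Among 8 ETS-family genes, the relatives of Spi1, 7 had RING1B (53.2% of all genes) and 3 had all 3 lists (13.4% of all genes), with Fli1 widest (13114 bp), then Erg (4136 bp) and Ets1 (3786 bp). Spib, the closest relative of Spi1, was the one without RING1B. Lymphoid regulators had RING1B in 8 of 8 and all 3 in 7 of 8, with Gata3 (28746 bp), Pax5 (20091 bp) and Ebf1 (13105 bp) widest. Stem and progenitor regulators had 6 of 6 and 5 of 6, led by Hoxa9, whose peak of 131360 bp spans much of the HoxA cluster, Meis1 (23658 bp) and Mecom (15574 bp). Myeloid regulators had 6 of 6 and 4 of 6, with RING1B widest at Gfi1 (13238 bp), Cebpa (7762 bp) and Cebpb (4456 bp). Cebpb had neither SUZ12 nor PCGF2. Erythroid and megakaryocyte regulators had 3 of 5 and 2 of 5. For RING1B that is a share of 60%, near that of all genes. RING1B was widest at Bcl11a (14363 bp), Zfpm1 (4870 bp) and Klf1 (2196 bp), with none at Gfi1b and Nfe2. Klf1, like Cebpb, had neither SUZ12 nor PCGF2.

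In the list of 14 genes of differentiated blood cells, RING1B was at Epor (5504 bp), Itga2b (2162 bp) and Hba-x (1363 bp). Thus 3 had RING1B and 1 had all 3 lists, against 53.2% and 13.4% of all genes. The difference from the regulator lists was not tested. Alas2, Cd3e, Cd79a and Csf1r were among the 11 with no RING1B peak, as were the beta-globin genes Hbb-bt and Hbb-bh1. Of 6 endothelial and haemogenic genes, 3 had RING1B (Kdr, 6100 bp, Kit, 3244 bp, and Cd34, 1397 bp) and 2 had all 3, with none at Cdh5, Pecam1 and Tek, so the RING1B share of 50% was near that of all genes. Over all 71 listed genes, 74.6% had RING1B, 62.0% SUZ12 and 49.3% PCGF2. Like Spi1, the regulators Gata1, Spib, Gfi1b and Nfe2 had no promoter peak of any list.

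**Figure D5:**
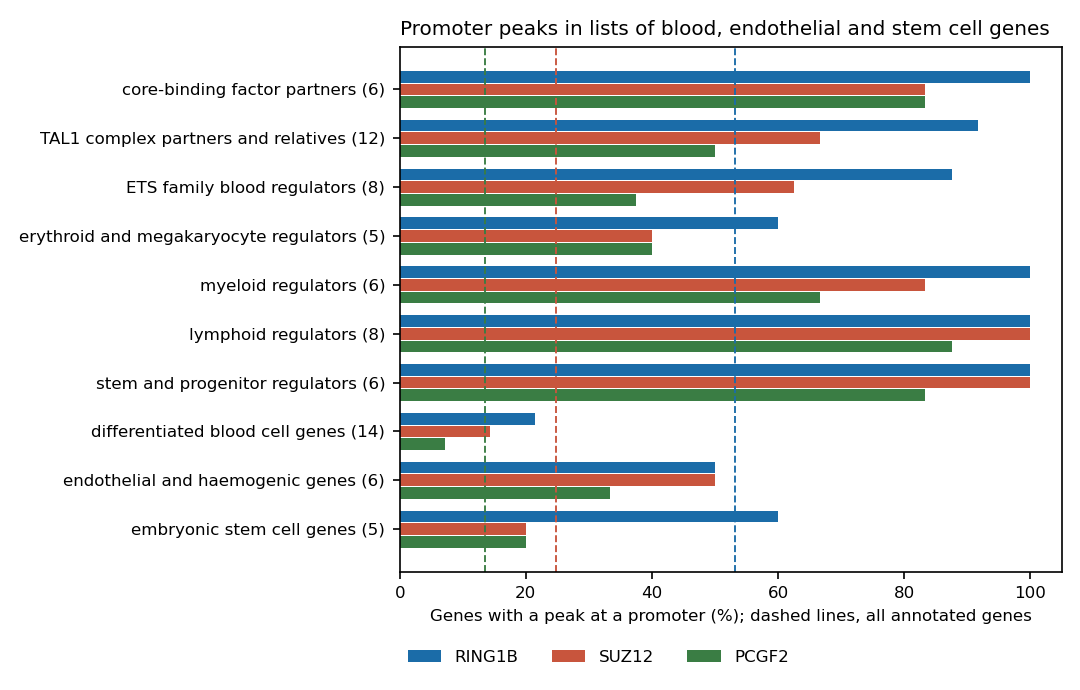
Percent of the genes of each list (number of genes in brackets) with a RING1B, SUZ12 or PCGF2 peak at a promoter, with dashed lines for all annotated genes at 53.2, 24.8 and 13.5%. Lymphoid regulators and the stem and progenitor regulators of blood reach 100% for RING1B and SUZ12. The 14 genes of differentiated blood cells lie below the line for each list.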

How the data were processed

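Per the methods, the authors aligned paired-end reads with Bowtie2 to mm10 joined to the human spike-in genome (hg19), kept uniquely mapped reads, removed duplicates and called broad peaks with MACS2 against Input, dropping blacklisted regions. For RING1B and SUZ12 they kept peaks of merged replicates found in both untreated PRC1CPM and untreated PRC1CKO cells, and dropped RING1B peaks that tamoxifen did not significantly reduce in PRC1CKO cells. Those RING1B PRC1CKO data were not analysed here. PCGF2 peaks were those found in every replicate of untreated PRC1CPM cells. The deposited values are peak starts and ends in bp. They hold no height, depth or replicate, so no error or test could be given.

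Here peaks were intersected (at least 1 bp, positions from base 1) with promoters and gene spans of curated RefSeq transcripts on GRCm38.p6, using Python 3.11.15, numpy 2.4.6 and pandas 2.3.3. Promoter 1 is the most upstream. CpG observed/expected is the CpG count times length over the product of C and G counts. The overlap code gave wrong coverage in 0 of 2000 simulated windows. Named were the 8 genes with each promoter, their nearest genes, up to 3 genes of each list with the widest RING1B promoter peak, genes without one (up to 5 in alphabetical order), and the 2 genes most alike by Jaccard index. Some genes that this rule names are not reported here. Other genes named were chosen after their values were seen. The 8 genes and the lists were chosen with earlier results of these data known.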

Additional observations from a re-analysis of the deposited data

How the results depend on the processing

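Promoters were redefined (500, 1000 or 5000 bp on either side, or the TSS base itself), predicted transcripts were added, 100 or 1000 bp of overlap was required, peaks under 1000 bp were dropped, and peaks up to 1000 bp apart were merged. Under these settings 7 of the 8 genes had a promoter peak of each list, as did 3 of the 6 Runx promoters. The Runx count was the same with 500 or 2500 bp as the limit for separate promoters, for which the genes were not recounted. With gene bodies counted, RING1B was found in 8 genes. GENCODE M21 transcripts, chosen after seeing the data, gave 7 Runx promoters, 4 of them with each list, since Runx1 then has a further start site inside the proximal domain. The share of all genes with a peak moved more, from 41.2 to 55.3% for RING1B, 18.9 to 26.1% for SUZ12 and 10.8 to 14.1% for PCGF2. The median RING1B width of 9454 bp did not move under the 3 settings tried for it. No paired analysis was possible because each list is a single set of regions without replicate columns, which also leaves no replicate to leave out. A weakly bound site below the callers' threshold would be missing from the lists.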

Other observations

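The genes of the stem cell state itself gave a further comparison. Of 5 such genes, Sox2 (RING1B peak of 6852 bp) and Pou5f1 (3631 bp) had RING1B without SUZ12 or PCGF2, Esrrb had peaks of all 3 lists (RING1B 6752 bp), and Nanog and Zfp42 had no RING1B peak. Among whole transcription factor families, 5 of 6 Gata genes had peaks of all 3 lists at a promoter, as did 12 of 17 T-box genes and 1 of 4 myogenic basic helix-loop-helix genes, against 13.4% of all genes. Gata1, Gata2 and Gata3 belong to both the family and the lists of blood regulators.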
